A study of Mus musculus with 8 samples.

Results

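MHC class I and antigen presentation genes were described by the H3K56ac peaks of MuSCs, the muscle stem cells that rest beside the fibres and rebuild them after injury. The 10 genes were B2m, H2-K1 and H2-D1 (class I chains), Tap1, Tap2, Tapbp, Psmb8 and Psmb9 (peptide processing), Nlrc5 (class I transactivator) and Ciita (class II transactivator). Peaks were taken from one merged list of 105600 H3K56ac peaks, and every peak that overlapped a gene by at least 1 bp, or the 10 kb on either side of it, was assigned to that gene. By this rule 38 distinct peaks of the 105600 belonged to the 10 genes.

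H3K56ac is the acetylated form of lysine 56 of histone H3, and it was mapped by ChIP-seq, in which chromatin pulled down by an antibody is sequenced. The series has 8 libraries. For each of the genotypes, Control and Sirt6mKO, 2 are H3K56ac libraries and 2 are input libraries made from chromatin before the pull-down. All MuSCs were freshly isolated from mice of C57BL/6 background. Control is labelled wild type. The labels give neither the age of the mice nor the number of mice per library. The study's figure legend that covers these data states male mice and an age range in weeks, not given per library. Sirt6mKO mice carry floxed alleles of Sirt6, a deacetylase of H3K56ac, together with Cre driven constitutively by the Pax7 promoter, so that Sirt6 is lost from the whole muscle lineage and not only from adult MuSCs. The merged list does not separate the genotypes. It has no value for any library, so the reads behind a peak are not known from it, no peak can be ranked by strength and no replicate error can be given. Each value below therefore describes the merged list, for which the contributing libraries are not given, and Sirt6mKO was not compared with Control. No test was run, because the design leaves 1 value per gene.

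MHC class I molecules display peptides from inside the cell to CD8+ T cells. The peptides are cut by the proteasome, whose catalytic subunits can be exchanged for immunoproteasome subunits, carried into the endoplasmic reticulum by the TAP transporter and loaded with the help of tapasin onto a heavy chain paired with beta-2 microglobulin. Most nucleated cells carry class I, and its genes are driven by NLRC5 and by interferon-responsive and NF-κB sites, whereas class II is largely a property of professional antigen-presenting cells and depends on CIITA. Skeletal muscle fibres are known for low class I, which inflammation raises.

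The promoters of B2m, H2-K1 and Tap1 are shown as examples of the class I and processing genes, and that of H2-D1 for its likeness to H2-K1. H3K56ac peaks covered all 4 from end to end. Each runs from 250 bases before to 50 bases after the RefSeq start on GRCm38.p6 (the same assembly as mm10) and is written 5′ to 3′ on the strand of the gene. Capitals mark matches, on either strand, to the letters of 7 motifs: GGGATTCCC (the near-palindromic NF-κB site of class I genes), GGACTTTCC (another NF-κB site), GAAANNGAA (the core of an interferon-stimulated response element), TTCNNNGAA (a STAT site), TGACGC (part of a cAMP response element), ATTGG (the inverted CCAAT box, core of the Y box) and GGGCGG (an SP1 site). None of the 7 contains another. B2m lies at chr2:122147437-122147736 on the plus strand, H2-K1 at chr17:34000298-34000597 on the minus strand, H2-D1 at chr17:35262844-35263143 on the plus strand and Tap1 at chr17:34187306-34187605 on the plus strand.
B2m: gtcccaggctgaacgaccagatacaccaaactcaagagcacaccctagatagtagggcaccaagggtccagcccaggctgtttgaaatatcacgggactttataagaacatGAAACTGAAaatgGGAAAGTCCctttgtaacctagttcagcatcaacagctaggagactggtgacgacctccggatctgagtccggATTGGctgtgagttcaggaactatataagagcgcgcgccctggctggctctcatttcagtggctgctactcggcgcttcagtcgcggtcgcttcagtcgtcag
H2-K1: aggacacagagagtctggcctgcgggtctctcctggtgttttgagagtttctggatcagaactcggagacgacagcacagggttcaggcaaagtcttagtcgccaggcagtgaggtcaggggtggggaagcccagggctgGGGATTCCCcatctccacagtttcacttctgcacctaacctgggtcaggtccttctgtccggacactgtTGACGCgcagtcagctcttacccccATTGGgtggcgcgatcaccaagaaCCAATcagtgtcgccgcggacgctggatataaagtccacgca
H2-D1: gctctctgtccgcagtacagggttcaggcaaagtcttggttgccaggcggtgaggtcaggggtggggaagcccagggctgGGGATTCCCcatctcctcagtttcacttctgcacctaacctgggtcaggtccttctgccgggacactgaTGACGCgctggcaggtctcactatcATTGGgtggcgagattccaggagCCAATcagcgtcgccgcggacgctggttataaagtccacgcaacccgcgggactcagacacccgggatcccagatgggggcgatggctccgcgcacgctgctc
Tap1: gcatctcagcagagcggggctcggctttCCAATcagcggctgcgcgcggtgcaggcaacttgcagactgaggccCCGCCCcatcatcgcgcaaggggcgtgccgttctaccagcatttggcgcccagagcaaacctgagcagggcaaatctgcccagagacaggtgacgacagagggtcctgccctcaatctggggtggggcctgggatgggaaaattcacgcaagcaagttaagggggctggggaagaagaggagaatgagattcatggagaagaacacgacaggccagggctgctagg

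The H2-K1 and H2-D1 promoters held the same 3 motifs in the same order. In H2-K1, the GGGATTCCC lay 110 bases, the TGACGC 41 bases and the ATTGG 16 bases before the start. In H2-D1, where the RefSeq start lies downstream of the GENCODE 5′ end, they lay 170, 101 and 76 bases before the start. The spacing was identical in both genes, with 60 bases between the first and the second motif and 19 bases between the second and the ATTGG, and 88 of the 99 letters from the GGGATTCCC to the ATTGG were the same. H2-K1 and H2-D1 are related copies of one gene family, so their promoters are not independent examples. Of 32851 RefSeq promoters of this length, 116 (0.353%) held GGGATTCCC, 7.40% held TGACGC and 37.4% held ATTGG. All 3 motifs together were present in 6 promoters of 5 genes, which were H2-K1 (2 entries), H2-D1, Ccdc27, Ercc5 and Zfp263.

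B2m carried a different set of letters. A GAAACTGAA (GAAANNGAA, in 8.56% of promoters) lay 139 bases before the start, next to a GGAAAGTCC (GGACTTTCC on the other strand, in 0.344% of promoters) at 126 bases, and an ATTGG lay 53 bases before the start. Tap1 held 1 CCAAT and 1 CCGCCC, at 222 and 176 bases before its start. The CCGCCC reads GGGCGG on the other strand, which 35.7% of promoters held, and both letters fall in the Psmb9 promoter as well, because that gene starts a short way off in the opposite direction. Psmb8 held a TTCCCAGAA 97 bases before its start (TTCNNNGAA, in 8.30% of promoters), and Tapbp held ATTGG at 248 and 165 bases and GGGCGG at 51 bases. These matches describe letters only. Promoter entries were found for 7 of the 10 genes, all of them wholly under a peak. How often this holds over all 32851 RefSeq promoters was not computed. Tap2, Nlrc5 and Ciita had no entry.

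To determine where H3K56ac lies on the antigen presentation genes, each peak was placed against the transcription start sites (TSSs) of the GENCODE vM21 annotation. All 10 genes had a peak over at least 1 of their TSSs, against 62.1% of 21938 protein-coding genes. A peak over the 5′ end of the gene, the outermost TSS, was present at 8 of the 10 genes, against 56.8% of protein-coding genes. All 10 genes also had a peak somewhere in their window, against 74.9% of protein-coding genes. With a peak allowed within 1 kb or 3 kb of a TSS, the count of 10 stood against 65.4% and 67.8%. Counting starts of protein-coding transcripts alone it stood against 60.7%, with intervals less than 1 kb apart joined against 62.5%, and with intervals of at least 500 bp against 61.8%. The genes without a peak over the 5′ end were Tap2 and Ciita. At Tap2 the nearest peak began 340 bp inside the gene, whereas at Ciita it began 9443 bp inside. Of the 70 distinct TSS positions of the 10 genes, 46 were under a peak. The same share over the TSS positions of all protein-coding genes was not computed, so this count has no background.

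**Figure D1:**
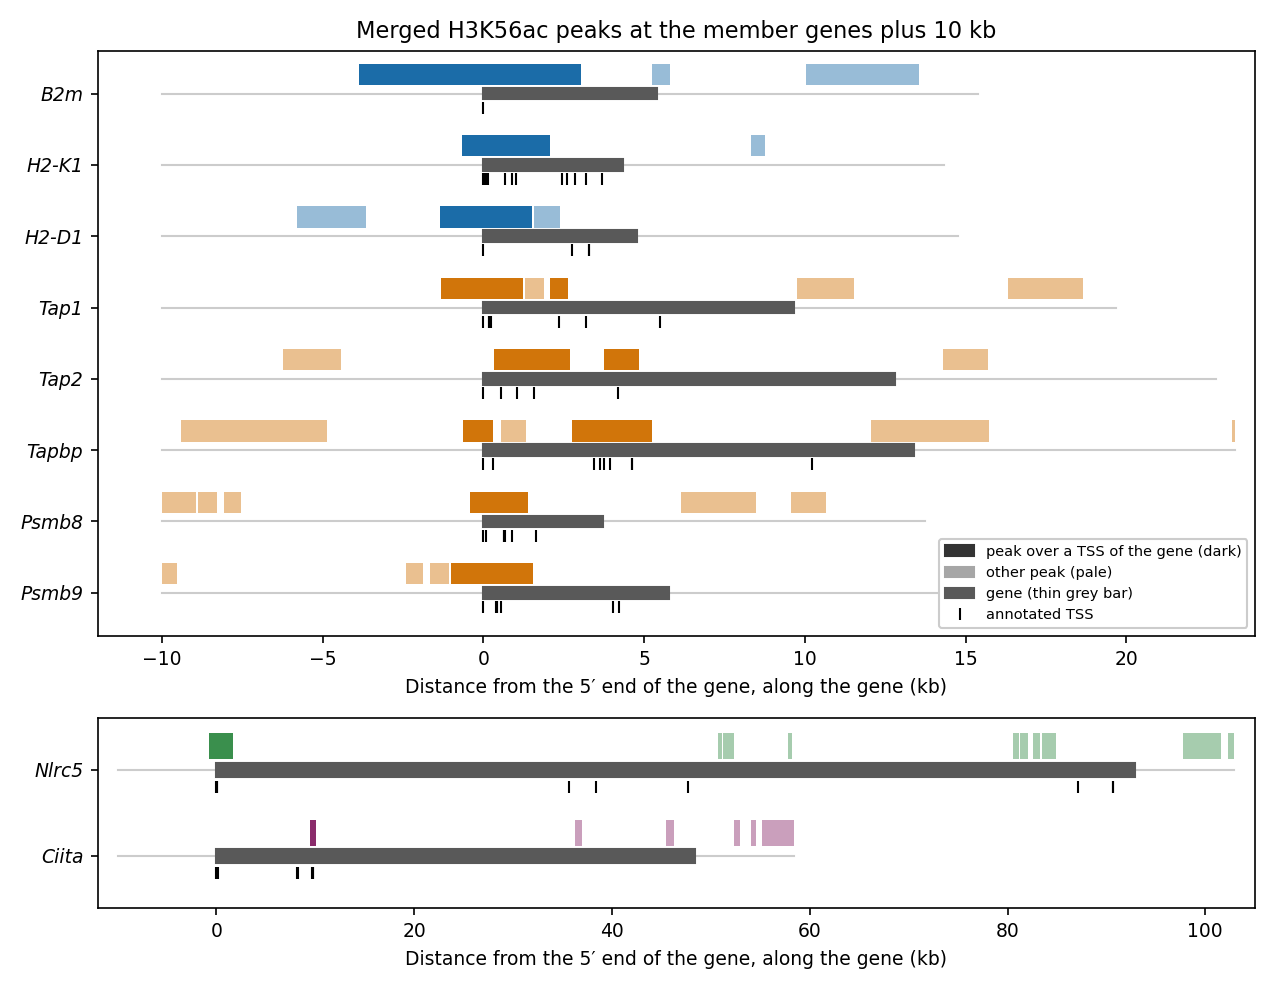
Merged H3K56ac peaks (upper bars of each row) along the 10 genes plus 10 kb on either side, with the gene as a grey bar and its TSSs as ticks, plotted by distance in kb from the 5′ end in the direction of transcription. Dark bars contain a TSS of the gene. In 8 genes a dark bar lies over position 0, in Tap2 it begins 340 bp inside the gene, and in Ciita it lies over the third group of TSSs, 9443 bp inside the gene.

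B2m had the widest start peak of the 10 genes. It (ENSMUSG00000060802.8, chromosome 2, 122147686 to 122153083, plus strand) encodes the invariant light chain of class I molecules, and its peak of 6891 bp ran from 122143821 to 122150711, over -3865 to 3025 bp around its only annotated TSS and over exon 1 of 4. This peak was wider than the widest TSS peak of 88.8% of the protein-coding genes that have one, whose median was 3458.5 bp (quartiles 2329 and 4965). A second peak of 555 bp overlapped exon 4. The remaining peak, of 3513 bp, lay in the flank over the TSS of Trim69, the neighbouring gene.

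H2-K1 (ENSMUSG00000061232.16, chromosome 17, 33996017 to 34000347, minus strand) encodes a classical heavy chain. A peak of 2753 bp from 33998266 to 34001018 covered -671 to 2081 bp, including exons 1 to 3 of 8 and 11 of its 16 TSS positions. H2-D1 (ENSMUSG00000073411.11, chromosome 17, 35262730 to 35267499, plus strand), the second classical heavy chain, had a peak of 2879 bp from 35261376 to 35264254, over -1354 to 1524 bp and exons 1 to 3 of 8. A further peak of 830 bp followed inside the gene, and one of 2143 bp lay upstream, from -5799 to -3657 bp. The 2 heavy chain genes were thus alike in the width and place of their start peaks, both narrower than the median of protein-coding genes.

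Tap1 and Psmb9 shared 1 start peak. Tap1 (ENSMUSG00000037321.17, chromosome 17, 34187553 to 34197225, plus strand) encodes one chain of the peptide transporter, and Psmb9 (ENSMUSG00000096727.3, 34181987 to 34187764, minus strand) encodes the immunoproteasome subunit LMP2. They are transcribed away from each other and their 5′ ends overlap by 212 bases. The common peak, 34186224 to 34188786, measured 2563 bp and contained exon 1 of both. Smaller peaks of 593 and 534 bp followed inside Tap1, the second of them over an inner TSS. Psmb9 had no peak of its own downstream of the shared one.

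Psmb8 (ENSMUSG00000024338.15, 34197721 to 34201454, plus strand), which encodes the immunoproteasome subunit LMP7, had a start peak of 1791 bp from 34197303 to 34199093, over -418 to 1372 bp and exons 1 and 2 of 7. Tap2 (ENSMUSG00000024339.12, 34203527 to 34216321, plus strand), the other transporter chain, had a peak of 2343 bp from 34203867 to 34206209 over 3 of its 5 TSS positions and exons 1 to 3. The 1106-bp peak after it covered 1 more TSS. Only the outermost Tap2 TSS was left uncovered.

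Tapbp (ENSMUSG00000024308.15, chromosome 17, 33915899 to 33929292, plus strand) encodes tapasin, which bridges the transporter and the class I heavy chain. Its 5′ end lay under a peak of 948 bp that also covered the TSS of Zbtb22, and the wider peak, of 2470 bp from 33918665 to 33921134, covered a group of 6 TSSs starting 3433 bp inside the gene. The RefSeq promoter of Tapbp falls in this wider peak. Of the other peaks in its window, those of 4551, 3694 and 2728 bp covered TSSs of the neighbours Daxx, Rgl2, Pfdn6 and Wdr46.

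Nlrc5 (ENSMUSG00000074151.13, chromosome 8, 94434356 to 94527272, plus strand), the transactivator of class I genes, had a peak of 2433 bp from 94433567 to 94435999 over its 5′ end, spanning -789 to 1643 bp and exon 1 of 53. It contained the 3 TSSs of the first group, while the 5 inner TSSs, which begin 35654 bp into the gene, lay under no peak. The other 7 peaks inside Nlrc5 were narrow, from 380 to 1454 bp, and 4 of them overlapped exons 16, 23 and 39 to 41. The flank held 3 more, of which the one of 2818 bp covered the TSS of Cpne2.

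Ciita (ENSMUSG00000022504.10, chromosome 16, 10480059 to 10528418, plus strand) differed from the other genes in the place of its start peak. Its 8 TSS positions form 3 groups, at 0, 8119 and 9687 bp from the 5′ end. The first group (3 TSSs) and the second (2 TSSs) lay under no peak. All 3 TSSs of the third group (transcripts Ciita-203, Ciita-204 and Ciita-208) lay under a peak of 657 bp, from 10489502 to 10490158. Mouse Ciita is known to have 3 alternative promoters, pI in dendritic cells, pIII in B cells and pIV in cells exposed to interferon gamma, which follow each other in this order along the gene. Whether the 3 annotated groups correspond to them one by one was not tested.

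The start peak of Ciita was also the narrowest of the 10. Its 657 bp compare with 1791 to 6891 bp at the other 9 genes, and only 1.70% of protein-coding genes with a TSS peak had a narrower widest one. Of the remaining Ciita peaks, one of 758 bp lay within the gene and one of 861 bp on exon 19 of 19. The flank held 2 peaks of 661 and 431 bp and the widest of the 38, of 12410 bp, which covers TSSs of the neighbours Dexi and Clec16a and reaches 3153 bases into the Ciita window.

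Next, the share of bases under peaks was compared between class I genes, processing genes and Ciita. In the gene plus 10 kb on either side, B2m was covered to 43.1%, H2-K1 to 13.1% and H2-D1 to 23.6%, a median of 23.6% for the 3 class I chains. B2m and H2-K1, whose proteins form 1 complex, were thus far apart on this scale. Among the processing genes the covered share was 26.4% at Tap1, 20.2% at Tap2, 37.6% at Tapbp, 31.3% at Psmb8 and 16.1% at Psmb9, with a median of 26.4%. Class I chains and processing genes overlapped in their ranges. Nlrc5 was covered to 10.8% and Ciita to 9.54%, and the median of all protein-coding genes was 9.85% (quartiles 0 and 22.5).

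All 8 class I and processing genes had a higher share than Ciita, and their median of 25.0% lay 15.5 percentage points above it. Of all protein-coding genes, 49.1% had a lower share than Ciita. The windows of Psmb9, Tap1, Psmb8 and Tap2 overlap and share peaks, so the 8 values are not independent. Ciita stood close to its own background, since the 1879 protein-coding genes within 20% of its length had a median of 9.55% (quartiles 4.21 and 17.9). The difference depended on the flank. With 20 kb on either side it was 0.981 percentage points, since Ciita rose to 17.9% while the class I median fell to 18.0% and the processing median to 19.5%. The 12410-bp peak of Dexi and Clec16a, which lies in the flank of Ciita, supplied 48.4% of the covered bases of the Ciita window at 10 kb. Without peaks that cover only the TSS of another protein-coding gene, the difference was 17.0 points and Ciita was covered to 4.93%.

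**Figure D2:**
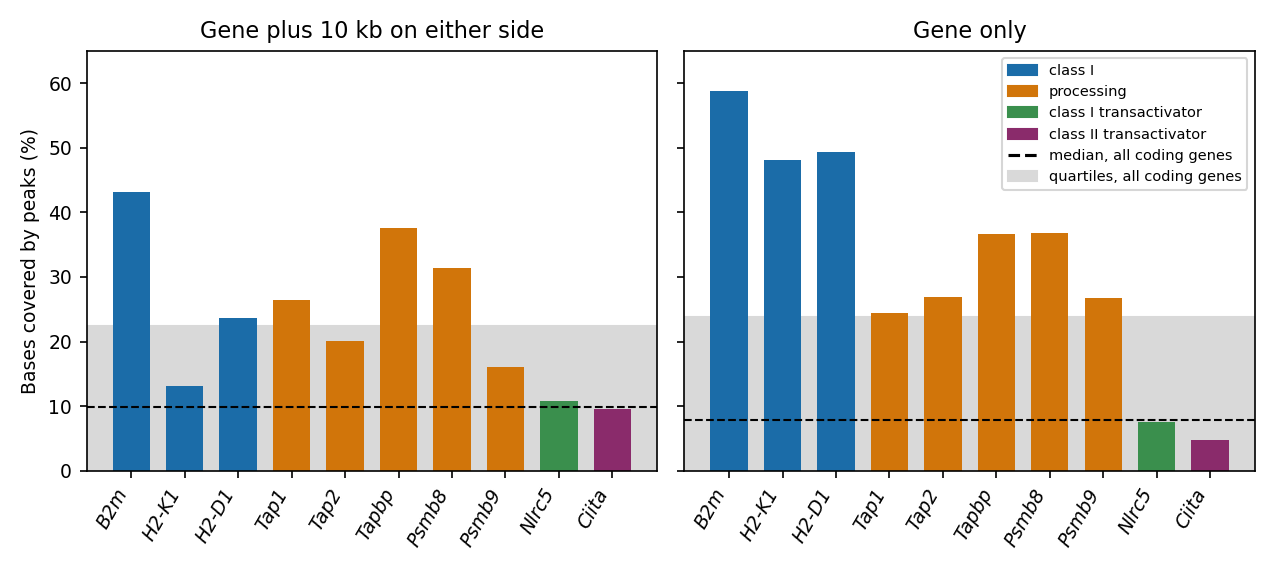
Share of bases (%) under merged H3K56ac peaks for each gene, in the gene plus 10 kb on either side (left) and in the gene alone (right), with the median (dashed line) and quartiles (grey band) of 21938 protein-coding genes. There is 1 value per gene and no error bar. In the gene alone, the class I chains reach 48.1% to 58.8%, the processing genes 24.4% to 36.8%, Nlrc5 7.63% and Ciita 4.71%.

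Within the gene alone the order was clearer. B2m was covered to 58.8%, H2-D1 to 49.4% and H2-K1 to 48.1%, which is more than in 92.6%, 89.8% and 89.4% of protein-coding genes. The 5 processing genes followed with 36.8% at Psmb8, 36.6% at Tapbp, 27.0% at Tap2, 26.7% at Psmb9 and 24.4% at Tap1. On this scale the class I chains and the processing genes did not overlap. Nlrc5 (7.63%) and Ciita (4.71%) were lowest, with all protein-coding genes at a median of 7.82% (quartiles 0 and 23.8).

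Gene length moves with this order. The class I chains are 4.331 to 5.398 kb long, Ciita 48.36 kb and Nlrc5 92.917 kb, and a start peak of a given width fills a larger part of a short gene. Genes within 20% of the length of B2m had a median of 0% (upper quartile 36.0%). Those like H2-K1 had 5.77% (upper quartile 45.5%) and those like H2-D1 0% (upper quartile 41.2%). The class I chains were above the upper quartile at their own length, H2-K1 only narrowly. These backgrounds include genes without a TSS peak, so they do not separate length from having such a peak. The part of length in the order was not tested. Tap2 (27.0%) and Tapbp (36.6%) lay above the upper quartiles at their lengths, 25.4% and 24.9%, whereas Nlrc5 (7.63%) was near the median of 7.12%. Part of the Tapbp value comes from the 3694-bp peak over the TSS of Rgl2. That peak begins inside Tapbp, 12053 bp from its 5′ end. Tap1, Psmb8 and Psmb9 lay under the upper quartiles at their lengths, which were 27.9%, 49.6% and 34.4%. Ciita (4.71%) lay under its median of 7.04%.

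A measure that does not depend on gene length is the 5 kb on either side of the 5′ end. Here B2m was covered to 68.9%, H2-D1 to 50.5% and H2-K1 to 27.5%, the processing genes to between 17.9% (Psmb8) and 41.0% (Tapbp), Nlrc5 to 24.3% and Ciita to 0%. The median of all protein-coding genes was 26.0% (quartiles 0 and 48.4). H2-K1 and Nlrc5 were near that median and Psmb8 was under it, so only B2m and H2-D1 passed the upper quartile. Since the Ciita peak lies over an inner start group, its value here says nothing about that group.

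The processing genes Psmb9, Tap1, Psmb8 and Tap2, but not Tapbp, sit inside the class II region of chromosome 17. From the start of H2-DMa to the end of H2-Eb2, a stretch of 221.872 kb, 20 peaks covered 12.8% of the bases. The 34.335 kb from Psmb9 to Tap2 held 6 of these peaks and was covered to 26.0%. On the side of H2-Ob, H2-Ab1, H2-Aa, H2-Eb1 and H2-Eb2, the 125.091 kb after Tap2 also held 6 peaks, but they covered 5.19%. Before Psmb9, where H2-DMa, H2-DMb2 and H2-DMb1 lie, 62.446 kb held 8 peaks and was covered to 20.8%. The widest of the 8, of 6311 bp, lies over the start of H2-DMa and also covers the TSS of Brd2, a widely expressed bromodomain gene transcribed in the opposite direction. Among the class II genes after Tap2, H2-Ab1 and H2-Eb1 had a peak over a TSS, in both cases not the outermost one, and H2-Ob, H2-Aa and H2-Eb2 had none.

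**Figure D3:**
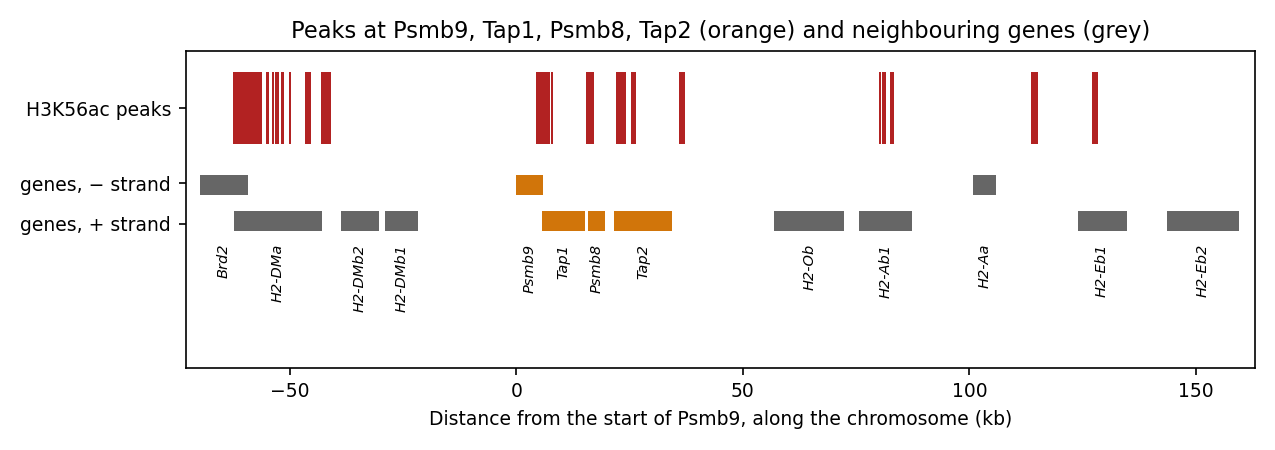
Merged H3K56ac peaks (red) and protein-coding genes by strand in the class II region, plotted by distance in kb from the start of Psmb9. The 4 processing genes in orange hold 6 peaks in 34.335 kb, and the stretch to their right, with H2-Ob, H2-Ab1, H2-Aa, H2-Eb1 and H2-Eb2, holds 6 peaks in 125.091 kb.

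Lists of related genes place these values. Each list is given by counts alone, beside the 62.1% of protein-coding genes with a peak over a TSS. All 10 genes of class I peptide loading and trimming had such a peak, with a median covered share of 35.8% and the widest TSS peak, of 8392 bp, at Pdia3, which encodes the ERp57 of the loading complex. The 3 constitutive catalytic proteasome subunits, which Psmb8, Psmb9 and Psmb10 replace in the immunoproteasome, also all had one, with a median of 31.7%. Psmb7 had the widest of those 3, 2726 bp. The immunoproteasome genes Psmb8 (31.3%) and Psmb9 (16.1%) had shares above Psmb7 (12.9%) and below Psmb5 (31.7%) and Psmb6 (35.7%). In the Psmb8 window, however, its own start peak gave 1791 of 7433 covered bases, and the other 5 peaks lay in the flanks, at Tap1, Psmb9 and Tap2. Of the 38 peaks, 6 were counted in more than 1 window.

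Class II genes had a TSS peak in fewer cases. Of 10 found in the annotation 3 had a peak over a TSS, with a median covered share of 5.84%. They were H2-DMa (6311 bp, shared with Brd2), H2-Ab1 (973 bp) and H2-Eb1 (1332 bp, over an inner TSS), and only H2-DMa had a peak over its 5′ end. Cd74, the invariant chain, and H2-Aa, H2-DMb1 and H2-DMb2 were among those without. Other class I and class Ib genes had a TSS peak in 9 of 15 cases, with a median of 5.16% and the widest, of 3032 bp, at H2-M3, which presents formylated peptides. H2-M1, H2-M2, H2-M9 and H2-Q6 were among the 6 without.

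The factors that act with the transactivators were nearly all covered at their starts. All 14 genes given here of the enhanceosome and the interferon gamma route (the RFX and NF-Y subunits, Creb1, interferon regulatory factors, Jak1, Jak2 and the receptor chains) had a peak over a TSS, 13 of them over the 5′ end, with a median covered share of 25.8%. Irf2 had the widest TSS peak, of 18331 bp, and Irf1 was covered to 52.5%. Ciita, at 9.54% and with no peak over its 5′ end, lay below the lowest of the 14, which was 12.9%.

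The labelled cell type was checked against its markers. All 20 MuSC markers had a peak over a TSS and over the 5′ end, beside 62.1% and 56.8% of protein-coding genes. Their median covered share was 48.0%, and the widest TSS peak, of 33642 bp, was at Megf10. Of 12 markers of antigen-presenting and other leukocytes, 1 had a peak over a TSS, and that peak, at Csf1r, measured 229 bp. The median covered share of this list was 0.130%, and Ptprc (CD45), by which leukocytes were removed in the sort, and Adgre1 were at 0. Without a peak over a TSS, Cd68 was still covered to 38.4% of its window, Cd79a to 28.2% and Fcgr1 to 14.3%, all above Ciita. Endothelial markers had a TSS peak in 3 of 4 cases (not Cdh5) and fibro-adipogenic markers in 2 of 3 (not Ly6a, the Sca1 used in the sort), with the widest at Tek (12975 bp) and Dcn (5233 bp). Pecam1 (CD31), the remaining marker used for depletion in the sort, had a TSS peak of 3440 bp and a covered share of 25.0%. That peak did not cover the 5′ end of the gene. Over the 5′ end, 0 of 12 leukocyte, 2 of 4 endothelial and 1 of 3 fibro-adipogenic markers had a peak. The marker values stand beside the class II and Ciita results. Per the study, sorted cells that were reanalyzed were mostly but not wholly pure. The part of other cell types in the peaks of the antigen presentation genes was not tested.

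**Figure D4:**
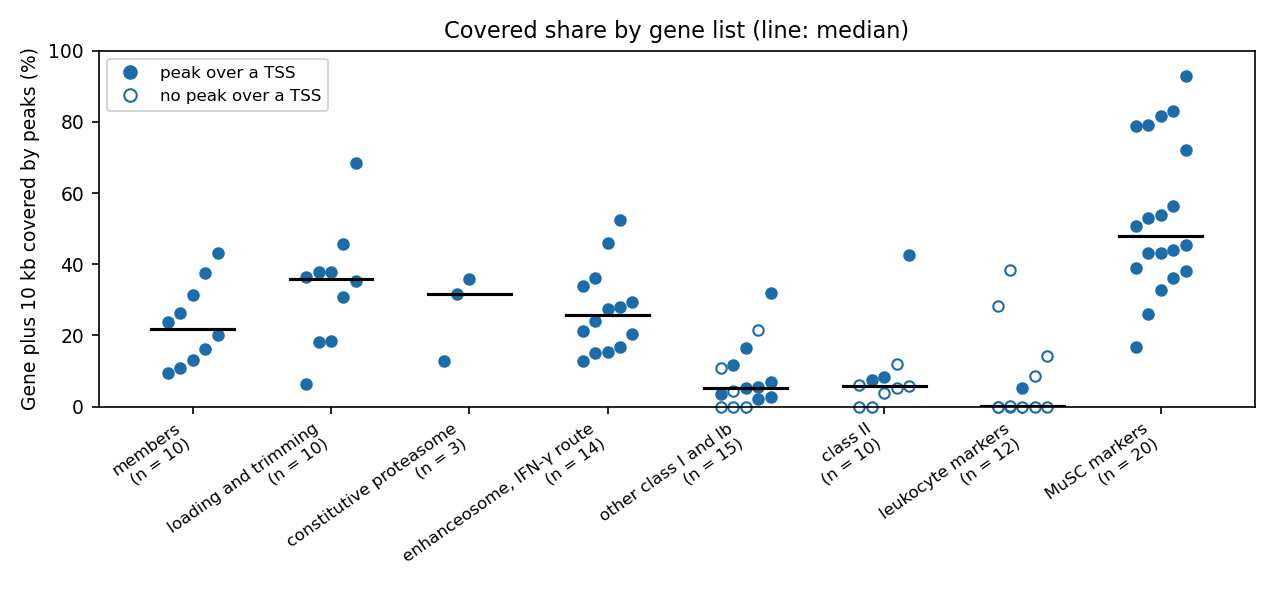
Share of bases (%) under merged H3K56ac peaks in the gene plus 10 kb, 1 point per gene, by list, with the median as a line, filled points for genes with a peak over a TSS and open points for genes without. The 10 antigen presentation genes lie between 9.54% and 43.1%, all filled, while 7 of 10 class II genes and 11 of 12 leukocyte markers are open.

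Class I genes are close copies of each other, and the reads had to align at a single place to be kept. For each gene, the share of 50-base words that occur once in the assembled chromosomes was therefore computed. H2-K1 (82.7%) and H2-D1 (85.0%) had less single-copy sequence than the other 8 genes, which ran from 91.0% at Nlrc5 to 99.4% at Psmb8. Within 1 kb of the 5′ end the shares were 88.7% for H2-K1, 96.7% for H2-D1 and 100% for both Nlrc5 and Ciita. Every 50-base word near the 5′ end of Ciita thus occurs once, and no peak lay there. With words of 100 bases the order changed, since Nlrc5 (95.3%) lay below H2-K1 (95.6%), and Ciita (97.3%) below H2-D1 (97.4%). Within 1 kb of the 5′ end, H2-K1 and H2-D1 were at 100% by the longer words. Per the study, the reads were single-end and shorter than 100 bases, so no read spans such a word. The widths at H2-K1 and H2-D1 were measured on sequence that is in part not unique, and the part of this in their values was not tested.

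Among the other class I and class Ib genes the single-copy share of 50-base words was lower still, at 34.9% for H2-Q7, 43.2% for H2-Q6, 51.1% for H2-T24 and 60.1% for H2-T22. With 100-base words it was 57.7% for H2-Q7, 63.7% for H2-Q6, 52.6% for H2-T24 and 87.3% for H2-T22. H2-Q6, H2-T24 and H2-T22 had no peak over a TSS, and H2-Q7 had one. Within 1 kb of the 5′ end the 50-base shares were 99.3% for H2-T24, 75.7% for H2-T22, 41.4% for H2-Q6 and 46.6% for H2-Q7. H2-T23, at 54.0% there, had a peak over its 5′ end. The genes H2-M1 (95.9%), H2-M2 (98.1%) and H2-M9 (94.2%) are nearly all single-copy. Their windows, at 82.8%, 68.7% and 88.0%, held no peak. Genes without a start peak thus occurred at low and at high single-copy shares near the 5′ end. The part of repeated sequence was not tested.

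**Figure D5:**
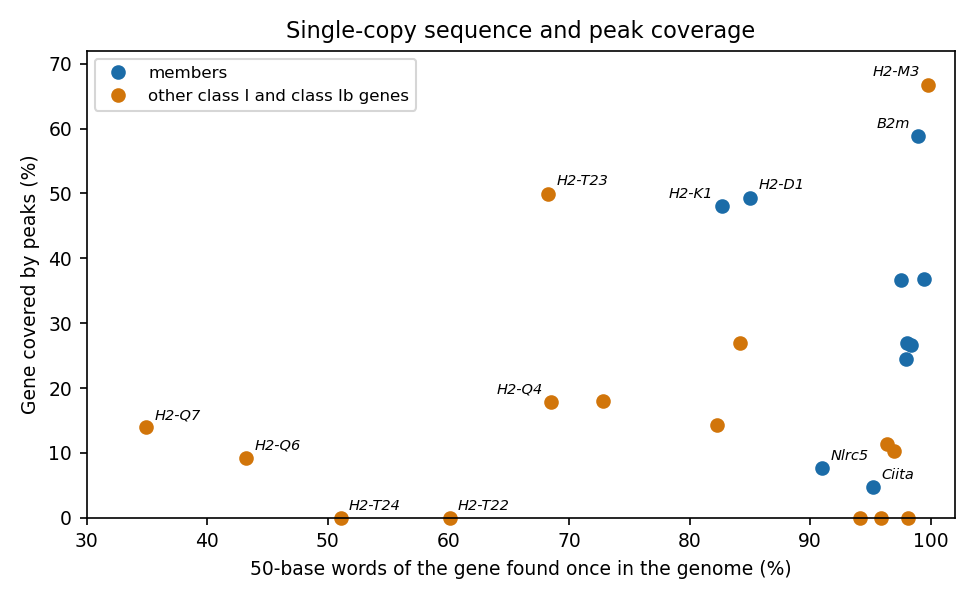
Share of bases (%) of each gene under merged H3K56ac peaks against the share (%) of its 50-base words found once in the genome, 1 point per gene, for the 10 antigen presentation genes (blue) and 15 other class I and class Ib genes (orange). H2-K1 and H2-D1 lie at 82.7% and 85.0% single-copy words, to the left of the other blue points, and H2-Q6, H2-Q7, H2-T22 and H2-T24 lie between 34.9% and 60.1%.

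Finally, the 38 peaks were sorted by what they overlap. Over a TSS of the 10 genes lay 12, with a median width of 2388 bp, of which the 948-bp peak of Tapbp and Zbtb22 also covered another gene's TSS. A TSS of a neighbouring protein-coding gene and of none of the 10 lay under 6, and 20 covered no TSS of a protein-coding gene. Those 20 had a median width of 740.5 bp, and 13 of them were inside one of the 10 genes. The 38 together had a median width of 1027 bp (380 to 12410), beside 974 bp for all peaks of the list, and 47.4% of them covered an annotated TSS of any kind, beside 16.6% of all peaks. This share follows in part from the rule, because windows drawn around genes contain their starts.

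Start peaks had a higher median CpG content than peaks away from coding starts, with overlap. The ratio of observed to expected CpG, which is near 1 where CpGs are not depleted, had a median of 0.45 (quartiles 0.349 and 0.572) in the 12 peaks over a TSS of the 10 genes and of 0.21 (0.147 and 0.316) in the 20 peaks over no coding TSS. All peaks over a coding TSS had a median of 0.464 and all peaks of 0.214, so the medians of both kinds were close to those of all such peaks. The groups overlapped, since the 534-bp peak of Tap1 (0.193) and the 1106-bp peak of Tap2 (0.235), both over a TSS, lay under the 790-bp peak of Tapbp (0.438), which covers no coding TSS. H2-D1 (0.637) and H2-K1 (0.633) had the highest ratios among the start peaks. B2m, with the widest start peak, had 0.322, and Ciita had 0.36.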

How the data were processed

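H3K56ac ChIP-seq of freshly isolated MuSCs gave 1 merged peak list. Per the methods, the authors trimmed reads, aligned them to mm10 with Bowtie and kept single alignments, removed duplicates, called peaks with MACS2, removed blacklisted regions and merged overlapping peaks. FastQC, SAMtools and deepTools are also named per the labels. Which libraries entered the merge is not given in the sources used here. The deposited list holds coordinates and a score column that is 0 in every row, and 0 columns of values per sample, so the reads behind each peak are not known from it, and no interval, floor or test between libraries was given. The study states read totals per library, but the list cannot be tied to them. Merging widens peaks and joins neighbours, and the single-alignment rule removes reads from repeated sequence.

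Intervals were compared with GENCODE vM21 on GRCm38, counting from 1, and 0 peaks ran past a chromosome end. A peak counted when it overlapped a window (gene plus 10 kb) by at least 1 bp. TSSs less than 1 kb apart were grouped. Covered shares are percents of bases. Background values were taken over 21938 protein-coding genes, and genes within 20% of a gene's length served as a second background. Words of 50 and 100 bases were counted on both strands of 21 chromosomes. Promoters and CpG ratios came from RefSeq GRCm38.p6. Computations used Python 3.11.15, numpy 2.4.6 and pandas 2.3.3, and figures matplotlib 3.10.9. Functions were tested on simulated intervals and sequences.

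The genes named are the 10 genes, and from each list those without a TSS peak (up to 4, alphabetical) and the one with the widest. The 10 genes and all lists were chosen with earlier results of these data known. H2-Ea was not found in the annotation. From the list of the enhanceosome and the interferon gamma route, 1 gene is not reported here and was left out of its counts. The H2-D1 promoter and other genes named outside this rule were chosen after their values were seen. Alternatives were other flanks, joined or wide intervals, peak midpoints and other TSS definitions. The 5 kb around the 5′ end and the removal of peaks over neighbouring starts were chosen after seeing the data.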

Additional observations from a re-analysis of the deposited data

How the results depend on the processing

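No paired analysis was possible because the list holds no value per library. With 6 summary results and 41 alternative values, 17 stayed within the limits set for them, 24 moved and 0 reversed. All 10 genes had a TSS peak under every alternative but the 5′ end alone, which gave 8. The distinct peaks numbered 26 (no flank) to 43 (20 kb), beside 38. Without a flank, the class I median was 49.4%, the processing median 27.0%, Ciita 4.71% and the difference 32.0 points. With a flank of 5 kb these were 34.2%, 27.9%, 5.03% and 23.9 points, and with 20 kb 18.0%, 19.5%, 17.9% and 0.981 points. Within 5 kb of the 5′ end they were 50.5%, 36.9%, 0% and 38.5 points. Joining intervals less than 1 kb apart gave 27.2% for the processing median, 10.5% for Ciita and 15.0 points. Intervals of at least 500 bp gave 8.91% for Ciita and 16.1 points. Without peaks over the starts of neighbours only, the processing median was 20.2%, Ciita 4.93% and the difference 17.0 points. The difference was above 0 in every setting run, and its size depended on the flank: as the flank widened, the class I median fell and Ciita rose. The list gives no reads per peak, which limits any statement on regions outside it.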

Other observations

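The GGGATTCCC letters of H2-K1 and H2-D1 were present in the promoters of 112 genes in all. Among them were the class I genes H2-Q6 and H2-Q7 and the interferon regulatory factor Irf1, each with ATTGG but without TGACGC. H2-Q6 had no H3K56ac peak over a TSS, H2-Q7 had one of 644 bp over an inner TSS and Irf1 one of 3677 bp over its 5′ end. The share of 50-base words found once in the genome was 43.2% for H2-Q6 and 34.9% for H2-Q7.

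H2-T23, which encodes the class Ib molecule Qa-1, had the second highest gene share among the other class I and class Ib genes. Its gene was covered to 49.95%, close to the 48.1% of H2-K1 and the 49.4% of H2-D1, and its start peak measured 946 bp. H2-M3 was covered to 66.8% of the gene, above the 58.8% of B2m. Psmb10, the remaining catalytic subunit of the immunoproteasome, was covered to 78.9% of the gene, beside 36.8% at Psmb8 and 26.7% at Psmb9. Its start peak of 2770 bp was narrower than the median of 3458.5 bp for protein-coding genes with one. In the gene plus 10 kb the order differed. H2-M3 (16.4%) lay below B2m (43.1%), and Psmb10 (18.5%) lay below Psmb8 (31.3%) and above Psmb9 (16.1%). H2-T23 was covered to 31.8% there, above H2-K1 (13.1%) and H2-D1 (23.6%). These genes were named after their values were seen.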
